A study of Mus musculus with 6 samples.

Results

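The genes described here encode secreted proteins of inflammation: the acute-phase proteins Saa3 and Lcn2, complement component C3, the CXC chemokines Cxcl1, Cxcl5 and Cxcl12, the CC chemokines Ccl2 and Ccl7, and the cytokines Csf1 and Il6. They were chosen by symbol, with earlier results of these data known, and all 10 were found among the 46095 gene symbols of the expression table. The table holds messenger RNA levels of 3T3-L1 cells, mouse embryo fibroblasts that turn into fat-storing cells when given adipogenic hormones, all taken 8 days after differentiation and labelled adipocytes. In 3 samples the differentiated cells were left untreated, and 3 were given Smilax glabra flavonoids, plant polyphenols, at a final 0.125 μg/mL. The question put to the data is which of these transcripts differed between the groups. Separate cultures are not stated for the replicates, and their spread, on which all p-values rest, may therefore be technical.

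Acute-phase proteins are secreted in quantity when tissue is inflamed, by the liver and also by fat cells and fibroblasts. Chemokines bind receptors on white blood cells and draw them into tissue. Many of these genes are switched on by the transcription factor NF-kB together with C/EBP factors, and the messenger RNAs of several chemokines and cytokines are short-lived. In obese fat tissue Saa3, Lcn2 and Ccl2 are known for high expression and Ccl2 for attracting monocytes.

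The libraries held between 21952064 and 26355863 fragments, worked back from the steps between the values. Pearson correlations of log2(FPKM + 1) across the 11464 tested genes ran from 0.967 to 0.989 within untreated and from 0.987 to 0.995 within treated cells, and the lowest belonged to untreated replicates 1 and 3. FPKM are fragment numbers divided by gene length and by library depth, which puts genes on a per-length scale. Levels of short and long genes set side by side still depend on the library, since the libraries differed over length (values below), and on the length used: the FPKM steps imply 534 bases for Saa3 and 858 for Lcn2, where all annotated exons together span 2606 and 2623 bases. Of the defining genes of mature adipocytes, Adipoq (adiponectin) reached at most 0.735 FPKM and Plin1 (perilipin 1) at most 0.362 FPKM, whereas the fatty acid carrier Fabp4 measured 219 ± 38.1 FPKM untreated and 170 ± 22.5 FPKM treated (SD, n = 3 each). Of 14 adipocyte markers 6 reached a mean of 1 FPKM and none was called (2 were higher at an unadjusted p under 0.05, and voom called 0). Their summed level was 415 to 444 FPKM in untreated and 389 to 553 FPKM in treated libraries. The 12 preadipocyte and fibroblast markers summed to 4346 to 5924 and 3884 to 4450 FPKM, and 3 of 11 tested ones, Thy1, Dpt and Lum, fell (7 lower and 0 higher at an unadjusted p under 0.05, and voom called 3 lower and 0 higher). Thy1 was not called without untreated replicate 2 or treated replicate 1 or 2 (adjusted p by limma up to 0.0829), nor Dpt without untreated replicate 2 (0.0537). Over all tested genes 4.86% were called higher and 5.13% lower. The part of these markers in the results below was not tested. Adipoq and Plin1 were thus near 0, and the cells are named here as labelled. In such bulk RNA, fewer cells of a type and less RNA per cell cannot be told apart.

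Flavonoid-treated cells had higher levels of Saa3, 2.26-fold in mean FPKM, and of Cxcl1, 1.51-fold. These were the only 2 of the 10 genes that passed the test, which was limma on log2(FPKM + 1) with a Benjamini-Hochberg adjusted p under 0.05 over the 11464 genes whose mean level reached 1 FPKM. Il6 was too low to be tested, so the count is 2 higher of 9 tested. Over all tested genes 4.86% were called higher and 5.13% lower. None of the 9 was called lower (0 at an unadjusted p under 0.05, and 0 by voom on the recovered fragments, which called 3 of them and 4.78% of all genes higher). At an unadjusted p under 0.05, 4 of 9 were higher, against 12.8% of tested genes. All 9 fitted changes were positive, with a median of 0.56 on the log2 scale, where the median of all tested genes was -0.02 and 47.4% had a positive change. In 5 of the 9 the treated values all lay above the untreated ones, and this was so for 17% of tested genes. The genes were chosen with earlier results of these data known, so these shares do not test the set as a whole. Rescaling to TPM brought the number called to 4 (3.85% of tested genes), as did median-ratio scaling (5.06%) and quantile normalization (6.19%), which added Lcn2 and Ccl7. With 1 library left out, Saa3 and Cxcl1 were called without untreated replicate 1 or untreated replicate 3. They were not called without untreated replicate 2 or any treated library, where the adjusted p ran from 0.0742 to 0.132 for Saa3 and from 0.0727 to 0.172 for Cxcl1.

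**Figure D1:**
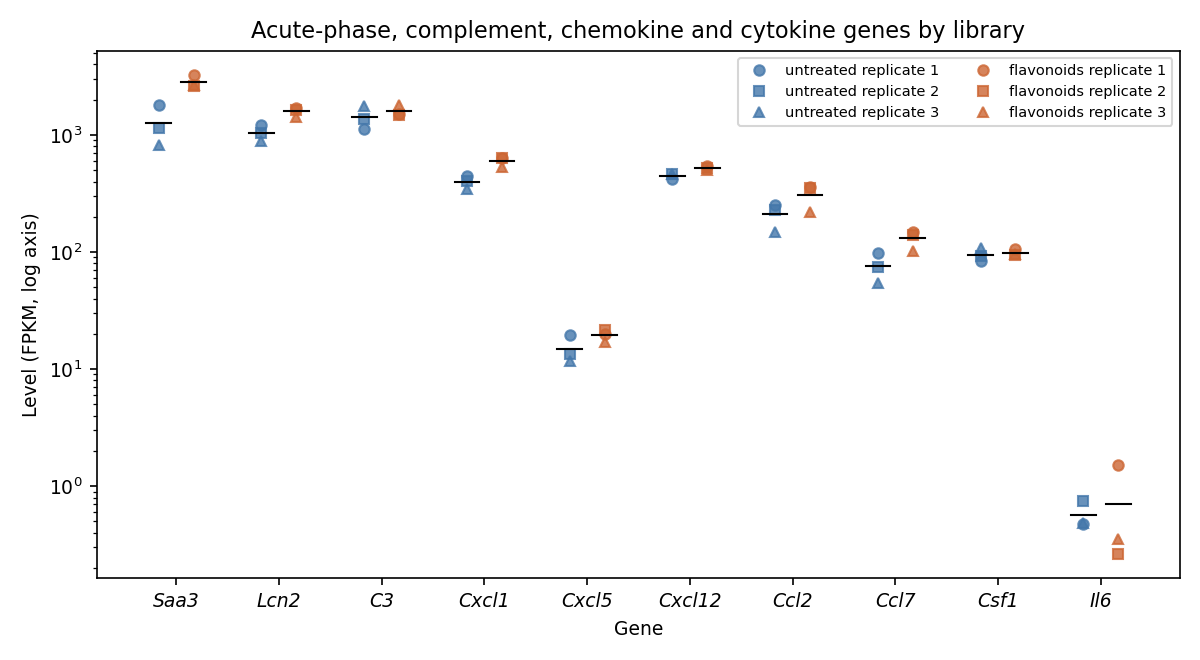
Levels of the 10 genes in FPKM on a log axis, with 1 symbol per library (untreated blue, flavonoids orange) and bars at the group means. The 3 treated values of Saa3, Lcn2, Cxcl1, Cxcl12 and Ccl7 lie above the 3 untreated ones, while those of C3, Cxcl5, Ccl2, Csf1 and Il6 overlap.

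In untreated cells C3, Saa3 and Lcn2 stood highest, with means of 1415, 1255 and 1041 FPKM, and their ranges overlapped. Cxcl12 and Cxcl1 followed at 449 and 398 FPKM, also with overlapping ranges, and then Ccl2 at 210 FPKM. Csf1 and Ccl7, at 94.3 and 75.9 FPKM, overlapped each other. Cxcl5 at 14.8 FPKM and Il6 at 0.570 FPKM lay apart at the bottom. Among all 46095 symbols C3 ranked 61, 32 and 16 and Saa3 ranked 25, 46 and 62 in untreated replicates 1, 2 and 3, so their order differed between libraries. In treated cells Saa3 came first at 2837 FPKM, above the ranges of C3 and Lcn2, which overlapped at 1590 and 1585 FPKM. Saa3 then ranked 7, 11 and 10 of all symbols in treated replicates 1, 2 and 3. Cxcl1 and Cxcl12 changed places in the order, as did Ccl7 and Csf1, but each pair had overlapping ranges in both groups.

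The promoters of Saa3, Lcn2, Cxcl1, C3 and Il6 are shown because the first 3 had among the larger changes of the set, C3 has a like level and no called change, and Il6 is the best-known cytokine of the set and was nearly silent. RefSeq (GRCm38.p6) gave the window of 250 bases before to 50 bases after the start for 7 of the 10 genes, and Cxcl5, Ccl2 and Ccl7 had no entry. Each is printed 5′ to 3′ on the gene's strand, with matches to the NF-kB consensus and to the C/EBP motif TTGCNNAA in capitals, searched on both strands. Positions count from the start as 0.
Saa3, chr7:46715627-46715926, minus strand: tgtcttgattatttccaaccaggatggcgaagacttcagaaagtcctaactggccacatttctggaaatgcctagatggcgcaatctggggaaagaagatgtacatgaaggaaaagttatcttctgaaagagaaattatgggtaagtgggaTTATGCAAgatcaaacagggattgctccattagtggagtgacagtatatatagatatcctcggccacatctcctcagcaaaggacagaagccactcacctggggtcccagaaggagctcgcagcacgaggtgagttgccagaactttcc
Lcn2, chr2:32387690-32387989, minus strand: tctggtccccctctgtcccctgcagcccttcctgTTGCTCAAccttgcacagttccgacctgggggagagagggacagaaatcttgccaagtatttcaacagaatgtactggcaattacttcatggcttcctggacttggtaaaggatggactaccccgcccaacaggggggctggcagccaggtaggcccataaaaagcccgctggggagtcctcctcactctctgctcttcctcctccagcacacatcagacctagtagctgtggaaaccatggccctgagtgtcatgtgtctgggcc
Cxcl1, chr5:90890995-90891294, plus strand: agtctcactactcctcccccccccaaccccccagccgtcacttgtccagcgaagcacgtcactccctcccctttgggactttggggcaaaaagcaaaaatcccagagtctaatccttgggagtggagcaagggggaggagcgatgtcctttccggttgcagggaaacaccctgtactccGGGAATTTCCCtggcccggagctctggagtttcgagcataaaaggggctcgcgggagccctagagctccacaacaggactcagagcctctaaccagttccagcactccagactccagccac
C3, chr17:57228087-57228386, minus strand: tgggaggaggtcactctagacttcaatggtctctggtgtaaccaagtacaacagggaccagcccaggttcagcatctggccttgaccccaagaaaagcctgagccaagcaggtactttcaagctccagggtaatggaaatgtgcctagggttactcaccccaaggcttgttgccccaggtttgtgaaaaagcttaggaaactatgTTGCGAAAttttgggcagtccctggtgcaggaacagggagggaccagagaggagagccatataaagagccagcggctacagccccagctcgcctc
Il6, chr5:30012864-30013163, plus strand: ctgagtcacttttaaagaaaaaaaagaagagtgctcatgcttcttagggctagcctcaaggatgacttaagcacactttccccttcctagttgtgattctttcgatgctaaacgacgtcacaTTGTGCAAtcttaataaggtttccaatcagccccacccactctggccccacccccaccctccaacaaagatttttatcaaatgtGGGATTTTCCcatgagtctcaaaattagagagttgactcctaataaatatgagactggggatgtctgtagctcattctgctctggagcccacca
The windows of Saa3, Lcn2 and C3 each held 1 C/EBP match, TTATGCAA at -99 to -92, TTGCTCAA at -216 to -209 and TTGCGAAA at -45 to -38 from the start. The Cxcl1 window held the NF-kB match GGGAATTTCC at -71 to -62, which overlaps a match on the other strand, GGAATTTCCC at -70 to -61. The Il6 window held an NF-kB match at -44 to -35 and a C/EBP match at -128 to -121. It was also the only window of the 7 with the AP-1 motif TGANTCA. Csf1 had an NF-kB match, GGAAAGTCCC at -154 to -145, and Cxcl12 had none of these motifs. Of all 32851 promoter windows 8.46% held the NF-kB consensus, 10.8% the C/EBP motif and 7.81% the AP-1 motif. A match describes the letters only.

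Saa3, serum amyloid A3, is a member of its family made mainly outside the liver (chromosome 7, 46711998 to 46715700, GRCm38 as are all positions given, minus strand). It measured 1797, 1146 and 822 FPKM in untreated replicates 1, 2 and 3 and 3266, 2600 and 2646 FPKM in treated replicates 1, 2 and 3. The lowest treated library stood well above the highest untreated one, and the untreated libraries were the more spread. Means and SDs were 1255 ± 497 FPKM untreated and 2837 ± 372 FPKM treated (n = 3 each). The log2 change was 1.24 with an SE of 0.28, and the adjusted p by limma was 0.0270. The family members Saa1 and Saa2 stayed at or below 1.09 and 1.11 FPKM in untreated and 1.28 and 1.37 FPKM in treated libraries, and Saa4 was listed at 0 in all libraries but 1. Saa genes are close copies whose reads can be split in counting, so the division of reads among them is uncertain.

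Lcn2, lipocalin 2, binds bacterial iron carriers (chromosome 2, 32384633 to 32388252). It measured 1213, 1031 and 879 FPKM untreated and 1707, 1618 and 1430 FPKM treated. The groups did not overlap, and replicate 1 was the highest and replicate 3 the lowest library in each. The log2 change was 0.61 (SE 0.18, n = 3 per group), with a 95% interval from 0.21 to 1.02 that is not adjusted for the number of genes, and limma's adjusted p of 0.0627 missed the threshold. Of 19 other settings, 10 called it higher. The Saa3 to Lcn2 ratio was 1.18 ± 0.279 in untreated and 1.79 ± 0.162 in treated cells, and the 3 treated ratios lay above the 3 untreated ones.

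C3, the central protein of the complement cascade (chromosome 17, 57203970 to 57228136), had the highest mean of the set in untreated cells, though it lay below Saa3 and Lcn2 in untreated replicate 1. It measured 1125, 1371 and 1748 FPKM untreated and 1498, 1472 and 1799 FPKM treated, with overlapping groups. Its log2 change was 0.19 (95% interval -0.27 to 0.65, limma adjusted p = 0.598, n = 3 per group), and 0 of 19 other settings called it (adjusted p from 0.0555 to 0.916). On the fold scale that interval runs from 0.827 to 1.57.

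Cxcl1, a chemokine for neutrophils, and Cxcl5, which binds the same receptor Cxcr2, lie on chromosome 5 at 90891241 to 90893115 and 90759360 to 90761624, with 129616 bases between them. Cxcl1 measured 445, 407 and 342 FPKM untreated and 636, 635 and 536 FPKM treated, without overlap. Its mean was 398 ± 52 FPKM untreated and 602 ± 57.4 FPKM treated (SD, n = 3 each). It rose by 0.60 on the log2 scale, with an SE of 0.15 and an adjusted p by limma of 0.0413. Cxcl5 was far lower and measured 19.4, 13.4 and 11.7 FPKM untreated and 19.9, 21.5 and 16.9 FPKM treated. Untreated replicate 1 reached into the treated range, and the log2 change of 0.39 (95% interval -0.03 to 0.81) had an adjusted p of 0.216 in limma. Without untreated replicate 1 it was called (adjusted p = 0.0283, log2 change 0.59). The Cxcl1 to Cxcl5 ratio was 27.5 ± 4.01 in untreated and 31.1 ± 1.33 in treated cells, and the ranges overlapped.

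Cxcl12, the stromal chemokine that retains blood-forming and immune cells through Cxcr4 (chromosome 6, 117168535 to 117181367), varied least among libraries. It measured 423, 460 and 462 FPKM untreated and 542, 518 and 497 FPKM treated, without overlap. The difference was small, 1.16-fold in mean FPKM, with a log2 change of 0.21 (95% interval -0.08 to 0.50, limma adjusted p = 0.326, n = 3 per group).

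Ccl2 and Ccl7, chemokines for monocytes that share the receptor Ccr2, are neighbours on chromosome 11 (82035571 to 82037453 and 82045712 to 82047525, with 8258 bases between them). Ccl2 measured 252, 230 and 148 FPKM untreated and 359, 351 and 219 FPKM treated, and the groups overlapped, since treated replicate 3 lay below untreated replicates 1 and 2. Its log2 change was 0.56 (95% interval -0.01 to 1.12, limma adjusted p = 0.189). Ccl7 measured 98.4, 75.2 and 54 FPKM untreated and 149, 140 and 103 FPKM treated, and the closest values of the groups, 98.4 and 103 FPKM, nearly met. Its change of 0.80 on the log2 scale (SE 0.22, n = 3 per group) was the second largest of the set, with an adjusted p of 0.0586 in limma, and 7 of 19 other settings called it. The Ccl2 to Ccl7 ratio was 2.79 ± 0.251 in untreated and 2.35 ± 0.190 in treated cells, and every treated ratio was below every untreated one. The ratios were not tested.

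Csf1, the growth factor of macrophages (chromosome 3, 107741048 to 107760469), measured 83.1, 92 and 107.6 FPKM untreated and 106.5, 93.6 and 96.7 FPKM treated. The treated libraries lay inside the untreated range. Its log2 change was 0.08 (95% interval -0.22 to 0.37, limma adjusted p = 0.750), and on the fold scale the interval ends at 1.29. Il6, a cytokine that drives the acute-phase response of the liver (chromosome 5, 30013114 to 30019981), was listed at 0.476, 0.749 and 0.486 FPKM untreated and 1.51, 0.264 and 0.354 FPKM treated. These values rest on 12, 20 and 14 fragments and on 43, 8 and 10 fragments. Treated replicate 1 alone was high, with a 95% Poisson interval of 1.09 to 2.03 FPKM that covers counting error only, and the other 2 treated libraries lay below all untreated ones. Il6 was below the filter, and without a filter its adjusted p by limma was 0.94. By contrast the other 9 genes rested on 488 to 229194 fragments per library, so counting error was small beside the spread between libraries.

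**Figure D2:**
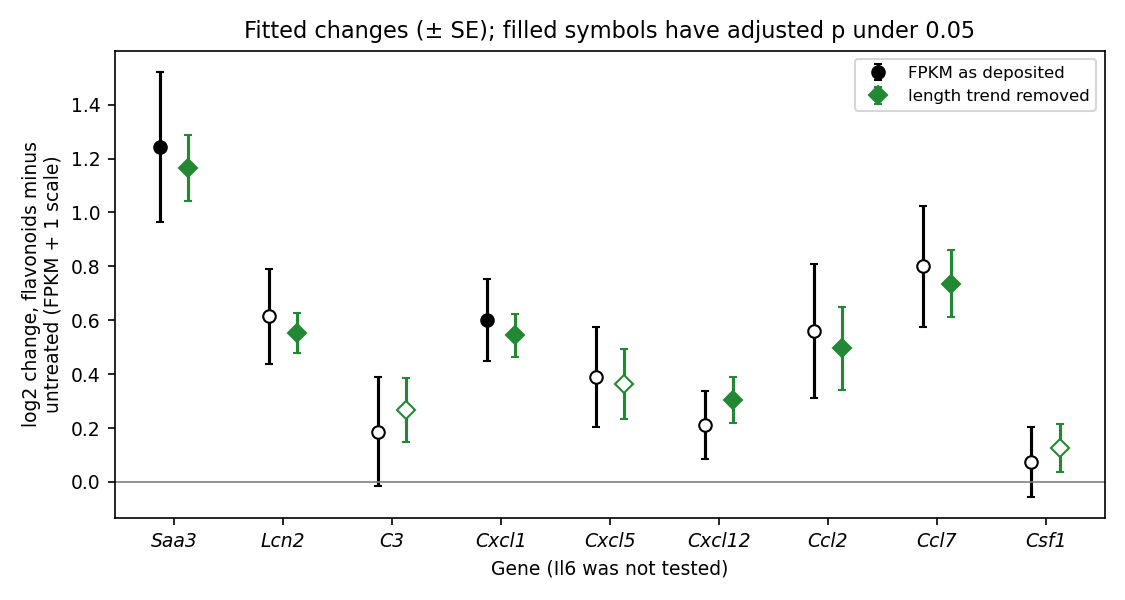
Fitted log2 changes of the 9 tested genes (flavonoids minus untreated, ± SE) on the deposited FPKM and after each library's trend over gene length was removed; filled symbols passed the adjusted p of 0.05. The SEs of all 9 genes are smaller after removal, and all 9 changes remain above 0.

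The spread among the untreated libraries had a pattern over these genes. Saa3, Lcn2, Cxcl1, Cxcl5, Ccl2 and Ccl7 were each highest in untreated replicate 1 and lowest in replicate 3, and C3, Cxcl12 and Csf1 were each lowest in replicate 1 and highest in replicate 3. The first 6 are short, with lengths of 534 to 1667 bases implied by the FPKM steps, and the last 3 are long, with 4203 to 5707 bases. The tested genes as a whole showed a like relation: the median log2 difference between untreated replicates 1 and 3 was 0.63 for 1103 genes of 500 to 1000 bases and -0.32 for 2145 genes of 4000 to 6000 bases. Of the former 75.5% had replicate 1 above 2 above 3, and of the latter 67.1% had the opposite order. Saa3 differed by 1.13 and C3 by -0.64 between these libraries, both beyond the median of their length.

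**Figure D3:**
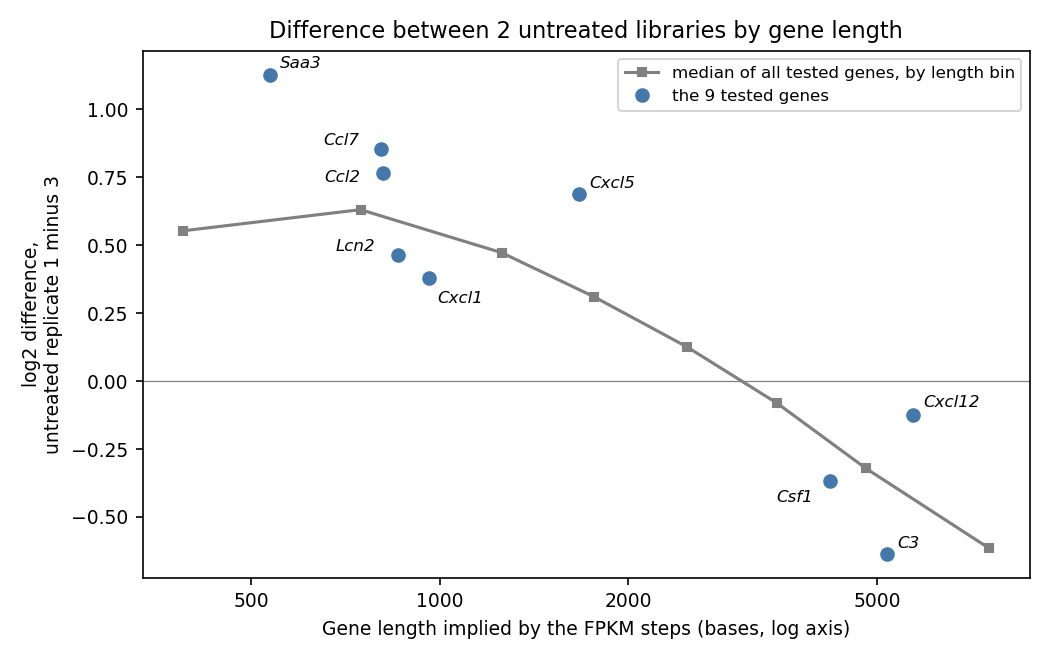
Log2 difference between untreated replicates 1 and 3 against the gene length implied by the FPKM steps (log axis), for the 9 tested genes and as medians of all tested genes in 8 length bins. The short genes Saa3, Ccl7, Ccl2, Cxcl5, Lcn2 and Cxcl1 lie above 0, and the long genes Cxcl12, Csf1 and C3 lie below.

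With each library's smooth trend over length removed, the SD of the untreated log2 values fell from 0.57 to 0.24 for Saa3, from 0.23 to 0.04 for Lcn2 and from 0.43 to 0.15 for Ccl7. For Cxcl12 it went from 0.07 to 0.14, although the SE of its log2 change fell from 0.126 to 0.0868. That SE also draws on the variance estimate shared over all tested genes. The log2 difference of Cxcl12 between untreated replicates 1 and 3 turned from -0.13 to 0.28. Saa3 (log2 change 1.16, adjusted p = 0.000269), Lcn2 (0.55, 0.000919), Cxcl1 (0.54, 0.00148), Ccl7 (0.74, 0.00268), Cxcl12 (0.30, 0.0310) and Ccl2 (0.50, 0.0439) were then called higher by limma with n = 3 per group. That is 6 of 9, where 11.2% of all tested genes were called higher by the same fit. Cxcl5, C3 and Csf1 were not (adjusted p = 0.0730, 0.136 and 0.342). The values of C3 after removal were 10.3, 10.4 and 10.6 untreated and 10.5, 10.5 and 10.9 treated on the log2 scale, and still overlapped. What made the libraries differ over length was not tested.

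**Figure D4:**
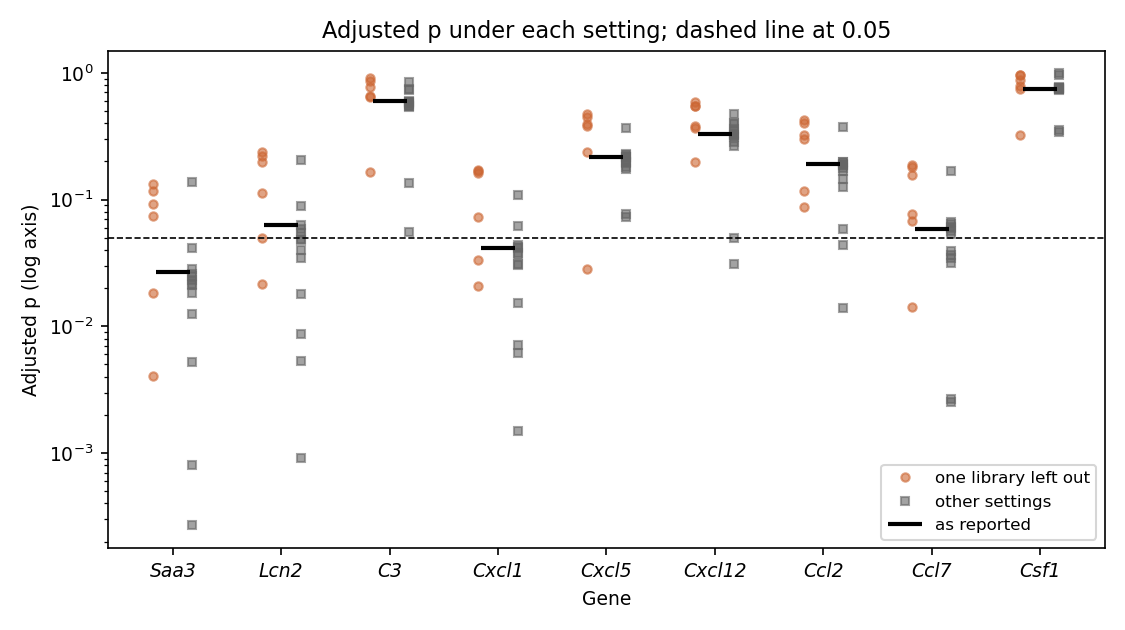
Adjusted p of each tested gene on a log axis, as reported and under 19 other settings, those that leave out 1 library in orange. Saa3, Lcn2, Cxcl1, Cxcl5, Cxcl12, Ccl2 and Ccl7 lie on both sides of 0.05, and all values of C3 and Csf1 lie above it.

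By a rule of likeness, the smallest root mean square difference of the centred log2 values over the 6 libraries among 7294 genes, the pattern of Saa3 was closest to Timm10 (0.1), Nhp2 (0.183) and Ppp1r14b (0.202). Timm10 encodes a mitochondrial import chaperone and measured 22.4, 16.3 and 11.5 FPKM untreated and 40.7, 37.7 and 35.8 FPKM treated. The pattern of Cxcl1 was closest to Ghitm (0.0374), Lcn2 (0.0409) and Yrdc (0.0462). Lcn2, another gene of the set, was thus second of all genes compared with Cxcl1. The likeness used the deposited FPKM with the trend over length left in, and the implied lengths of Lcn2 and Cxcl1 are 858 and 961 bases. Saa3 and Cxcl1 were taken as called genes, so their nearest genes share the difference between the groups. Regulation in common was not tested.

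Of the receptors of these proteins, Cxcr1, Cxcr4, Ccr2 and Ccr3 were listed at 0 in all 6 libraries. Cxcr2 and the C3a receptor gene C3ar1 reached at most 0.0149 and 0.0199 FPKM. Csf1r, the receptor gene for Csf1, measured 0.681 ± 0.0705 FPKM untreated and 0.736 ± 0.134 FPKM treated and was too low to be tested. Of 21 listed receptors found, 6 were tested, 2 fell and 0 rose (2 lower and 1 higher at an unadjusted p under 0.05, and voom called 2 lower and 0 higher). Over all tested genes 5.13% were called lower and 4.86% higher. Ackr3, the scavenger receptor that removes Cxcl12, fell: 18.8 ± 2.01 FPKM untreated and 9.94 ± 0.584 FPKM treated (SD, n = 3 each), a log2 change of -0.85 with an adjusted p by limma of 0.00620, and without untreated replicate 2 its adjusted p was 0.0586. Slc22a17, a receptor for lipocalin 2, fell from 3.16 ± 0.339 to 1.68 ± 0.173 FPKM (adjusted p by limma 0.0256). The Il6 receptor genes Il6ra and Il6st measured 3.83 ± 1.07 and 99 ± 34.3 FPKM untreated and 3.87 ± 0.157 and 91.7 ± 6.46 FPKM treated, with no call (adjusted p = 0.921 and 0.909 in limma). Tlr2 and Tlr4, which recognise bacterial products, measured 43.7 ± 1.52 and 1.60 ± 0.477 FPKM untreated and 53.1 ± 1.90 and 2.04 ± 0.632 FPKM treated. Neither was called (limma adjusted p = 0.127 and 0.543), although the treated values of Tlr2 all lay above the untreated ones.

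No gene of the related secreted lists was called higher. Over all tested genes 4.86% were called higher and 5.13% lower, so few calls would be looked for in lists of this size. Of 12 other CXC chemokines only Cxcl10 was tested, at 7.25 ± 1.73 and 6.38 ± 1.34 FPKM, and Cxcl2 and Cxcl3, close relatives of Cxcl1, reached at most 0.0373 and 0.0393 FPKM. Of 19 other CC, C and CX3C chemokines 7 were tested, 1 fell and 0 rose (1 lower and 0 higher at an unadjusted p under 0.05, and the same by voom). That gene was Cx3cl1, a membrane-bound chemokine, with 41.6 ± 7.09 FPKM untreated and 19.9 ± 0.654 FPKM treated (SD, n = 3 each), a log2 change of -1.02 and an adjusted p by limma of 0.00522. Ccl5 (11.5 ± 3.80 and 9.92 ± 1.66 FPKM), Ccl8, Ccl9, Ccl20, Ccl25 and Ccl27a were not called (adjusted p = 0.689, 0.370, 0.416, 0.866, 0.995 and 0.725). Among 6 tested other cytokines Tslp, an epithelial-type alarm cytokine, fell from 4.24 ± 1.11 to 1.06 ± 0.275 FPKM (log2 change -1.34, adjusted p = 0.00591), and none rose (3 lower and 0 higher at an unadjusted p under 0.05, and voom called 1 lower and 0 higher). Il1b and Tnf, which induce these genes, were listed at 0 in all 6 libraries. Of 14 tested other acute-phase and lipocalin genes limma called 0 (1 higher and 3 lower at an unadjusted p under 0.05, 0 by voom), with Ptx3 at 286 ± 31.2 and 314 ± 47.7 FPKM and Lbp at 200 ± 10.5 and 270 ± 22.4 FPKM. Of 9 tested complement genes it called 0 as well (1 higher and 2 lower unadjusted, 0 by voom).

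Of 27 tested NF-kB and C/EBP regulators 3 rose and 0 fell (7 higher and 2 lower at an unadjusted p under 0.05, and voom called 3 and 0). The shares over all tested genes were 4.86% higher and 5.13% lower. Relb, an NF-kB subunit, rose from 21.6 ± 2.96 to 33.8 ± 2.64 FPKM and Nfkbib, an inhibitor of NF-kB, from 13.8 ± 1.98 to 21.8 ± 1.07 FPKM. Cebpb, which binds C/EBP sites, rose from 151 ± 21.1 to 230 ± 12.7 FPKM (SD, n = 3 each; limma adjusted p = 0.0202, 0.0203 and 0.0271). Of 10 tested regulators of messenger RNA decay 1 fell and 0 rose (2 higher and 2 lower unadjusted, and voom called 1 higher and 1 lower). Zfp36, which speeds the decay of cytokine transcripts, fell from 263 ± 18.3 to 185 ± 22.2 FPKM (log2 change -0.51, adjusted p = 0.0483). Leaving out untreated replicate 2 or any treated library took the calls of Slc22a17, Relb, Nfkbib and Cebpb away (highest adjusted p 0.123, 0.118, 0.112 and 0.127). Zfp36 was kept only without untreated replicate 3 (0.0206, against up to 0.217). Of 13 other settings that kept all libraries, 8 called Zfp36. Those that did not included median-ratio scaling (limma adjusted p = 0.0523) and a robust variance estimate (0.0556).

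**Figure D5:**
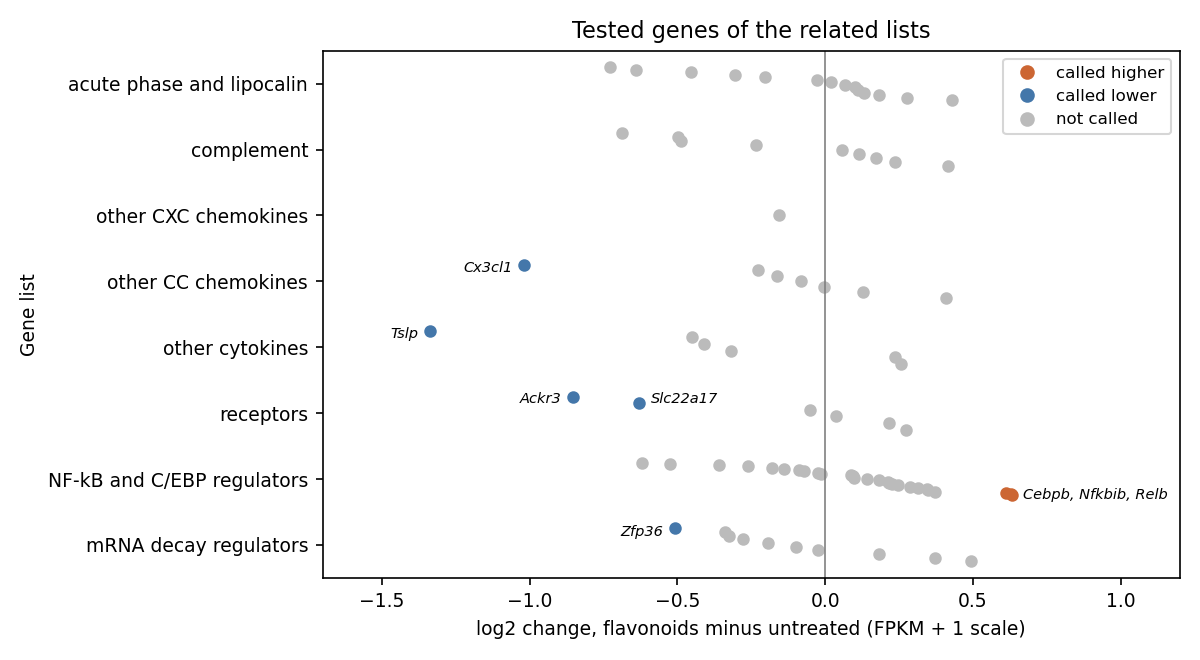
Log2 changes (flavonoids minus untreated) of the tested genes of 8 related lists, 1 point per gene, with called genes named. Cebpb, Nfkbib and Relb are the called higher genes, and Cx3cl1, Tslp, Ackr3, Slc22a17 and Zfp36 the called lower ones.

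White blood cells make many of the same proteins, so their markers were read beside these values. Of 13 macrophage markers found, Ptprc, Aif1, Tyrobp and Laptm5 were listed at 0 in all 6 libraries, and Adgre1 and Itgam reached at most 0.0140 and 0.00967 FPKM. The summed level of the 13 was 14.2 to 19.1 FPKM in untreated and 25.9 to 28.4 FPKM in treated libraries. Most of it was Cd14, a co-receptor for bacterial lipopolysaccharide, which rose from 12.6 ± 3.13 to 23.4 ± 1.16 FPKM (SD, n = 3 each; limma adjusted p = 0.0169, up to 0.0884 without untreated replicate 2 or any 1 treated library). Cd14 was the only call among 3 tested macrophage markers (1 higher and 0 lower at an unadjusted p under 0.05, and by voom). The other tested ones, Cd68 and Lyz2, had log2 changes of -0.16 and -0.04 (limma adjusted p = 0.676 and 0.909). Among all tested genes 4.86% were called higher and 5.13% lower. Neutrophil markers summed to 1.03 to 3.01 and 1.18 to 1.89 FPKM, with Ly6g, Ngp and Mpo listed at 0. The 8 endothelial markers summed to at most 0.448 FPKM and the 8 lymphocyte markers to at most 0.151 FPKM.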

How the data were processed

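The authors deposited 1 table of FPKM values for 46095 gene symbols, with 1 column per sample. Per the labels' protocols, total RNA was taken up in TRIzol and turned into TruSeq libraries. Per the submitters' processing notes, FastQC and HISAT2 were used with the mouse build mm10. Which tool counted reads, with which annotation and strand setting, is not given in the sources used here, so reads of close copies or overlapping genes cannot be assigned with certainty.

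Whole fragments were worked back from the steps of each gene's values, and came out whole within 0.005 fragments for all 22235 genes above 0. For genes above 0 in only 1 library this holds by construction, so it is no check of those genes. A divisor shared by all 6 numbers of a gene makes them too small and the implied length too long. The groups were compared by limma (version 3.58.1, R 4.3.3) on log2(FPKM + 1), two-sided, with an intensity trend, for genes whose mean reached 1 FPKM, and p-values were adjusted by Benjamini-Hochberg over 11464 genes. The test was also tried on simulated fragments. These had the same relative spread for every gene and no trend over gene length, so they do not cover the trend seen here. Positions are from GENCODE M21 and promoters from RefSeq, both on GRCm38, the assembly that mm10 denotes.

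The genes and the 14 lists (8 of related genes, 6 of cell type markers) were chosen with earlier results of these data known. Named besides are up to 3 called genes of smallest p per list, the tested receptors and other chemokines, and the 3 genes of most alike pattern for each called gene of the set, leaving out unnamed models and genes under a mean of 5 FPKM. Values of other listed genes, such as Saa1 or Adipoq, were added after they were seen. Python 3.11.15 with numpy 2.4.6, pandas 2.3.3, scipy 1.17.1 and matplotlib 3.10.9 did the rest.

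The 19 other settings comprised a block for replicate number, a pseudocount of 0.1 or 5, no filter, a minimum mean of 5 FPKM, TPM, median-ratio and quantile scaling, other variance estimates, voom on the fragments, removal of each library's trend over length (loess, span 0.5) with and without the block, and leaving out each library.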

Additional observations from a re-analysis of the deposited data

How the results depend on the processing

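Of the 9 tested genes, the count called higher was 2, and 0 were called lower under every setting run. The count higher was 0 without a filter on low values, 4 after rescaling to TPM, after median-ratio scaling and after quantile normalization, and 6 with the length trend removed, with or without the replicate block. Leaving out 1 library gave 0 to 5: 5 without untreated replicate 1, 3 without untreated replicate 3, and 0 without untreated replicate 2 or any treated library. Removing the filter adds genes to the adjustment and to the shared variance estimate, and leaving out a library removes samples. What moved the counts was not tested for any setting.

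Over all genes, 557 were called higher and 588 lower. The counts were 317 and 324 without the filter, 1286 and 1208 with the length trend removed, and 64 to 875 and 76 to 827 with 1 library left out. After rescaling to TPM 441 were higher and 599 lower. With the replicate block they were 220 and 237 (1055 and 994 with the length trend also removed). Libraries of the same number did not deviate together over all tested genes (correlations of deviations from the group means -0.143, -0.117 and -0.203), and the main fit used no pairing. Those deviations also hold each library's trend over gene length, so they cannot settle whether the numbers mark pairs. With the block Saa3 stayed called (adjusted p = 0.0416), Cxcl1 was not (0.0619), and Ccl7 was (0.0346). Slc22a17, Relb, Nfkbib, Cebpb, Zfp36 and Yrdc also lost their calls with the block.

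For the single genes named, the other settings left 421 results on their side of the threshold, took away 24 calls, added 19 and turned 8 signs; leaving out 1 library gave 151, 56, 4 and 11. These counts leave out Il6, which was below the filter: its log2 difference of 0.05 ran from -0.26 (without treated replicate 1) to 0.23 over the libraries left out. Among the tested genes, signs turned only for genes without a call. Csf1 ran from -0.0104 to 0.17 over the libraries left out, Ccl5 from -0.42 to 0.0389, Ccl20 from -0.32 to 0.12, Ccl25 from -0.27 to 0.18, Il6ra from -0.12 to 0.20 and Il6st from -0.32 to 0.19. Otherwise Ccl20 was 0.0238 under quantile normalization, Ccl25 was 0.0107 with a pseudocount of 0.1, 0.0042 under median-ratio scaling, 0.10 under quantile normalization and 0.0244 by voom, Il6ra was -0.0113 on the TPM scale, and Il6st was 0.0354 with the length trend removed, with or without the block. With 3 libraries per group the SEs of the 9 log2 changes ran from 0.13 to 0.28, while counting error was small for all but Il6.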
